A study of Mus musculus with 6 samples.

Results

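The uroplakin family comprised 6 genes on the array: Upk1a, Upk1b, Upk2, Upk3a, Upk3b and Upk3bl. They were chosen by symbol, as the features of the value table annotated with a single gene symbol of the family, and each had exactly 1 feature, so 6 of the 19938 genes tested are described. RNA came from bladders of mouse embryos at E14.5, in 3 samples per genotype, each pooled from 2 bladders and read on 1 Affymetrix Mouse Gene ST array. The Klf5-deleted group is given in the labels as Klf5 Δ/Δ, with both copies of Klf5, a zinc-finger transcription factor of epithelia, deleted. The control group was wild type for Klf5 and carried ShhGfpCre, an allele that puts a fusion of green fluorescent protein and Cre recombinase under the control of Shh, a gene expressed by the bladder epithelium. The labels do not name the Cre allele of the deleted group, nor litters. Whether Klf5 was deleted in all cells of these bladders or only in some is therefore not known here. They call the source bladder urothelium, while the protocol speaks of whole bladders. The smooth muscle genes Acta2 and Myh11 read between 13.97 and 14.16 and between 12.43 and 13.13 on the log2 scale across the 6 arrays, so the RNA held muscle as well as epithelium.

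Uroplakins are integral membrane proteins made by the lining epithelium of the bladder, the urothelium. They assemble into rigid plaques, the asymmetric unit membrane, which covers the apical face of the superficial umbrella cells and contributes to the barrier against urine. Upk1a and Upk1b code for tetraspanins, proteins that cross the membrane several times, and Upk2, Upk3a and Upk3b code for partners that cross it once. Upk1a protein pairs with Upk2 protein, and Upk1b protein pairs with Upk3a or Upk3b protein. Upk3b is also known as a gene of the mesothelium, the sheet of cells on the outer face of abdominal organs. Upk3bl is named for its similarity to Upk3b.

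RefSeq promoter windows of build GRCm38.p6, which run from 250 bases before to 50 bases after the annotated start, were matched by symbol for 4 members. The reference used here held no window for Upk1b or Upk2, so the 4 shown were not chosen by response. Of these 4 genes, Upk1a, Upk3a and Upk3bl fell in the Klf5-deleted bladders and Upk3b did not pass the test. The windows lie at chr7:30612685-30612984 on the minus strand for Upk1a, chr15:85016891-85017190 on the plus strand for Upk3a, chr5:136038246-136038545 on the plus strand for Upk3b and chr5:136057017-136057316 on the plus strand for Upk3bl. Each sequence is written 5′ to 3′ along its gene. Capitals mark CACCC boxes (CACCC, or GGGTG on the other strand) and GC boxes (GGGCGG, or CCGCCC on the other strand), GC-rich letters that Krüppel-like factors are known to bind.
Upk1a: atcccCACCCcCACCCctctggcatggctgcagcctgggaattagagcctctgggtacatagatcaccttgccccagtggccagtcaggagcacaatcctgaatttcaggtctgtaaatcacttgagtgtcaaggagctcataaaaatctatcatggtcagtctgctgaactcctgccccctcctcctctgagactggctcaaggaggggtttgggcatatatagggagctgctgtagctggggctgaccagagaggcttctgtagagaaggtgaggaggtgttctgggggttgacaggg
Upk3a: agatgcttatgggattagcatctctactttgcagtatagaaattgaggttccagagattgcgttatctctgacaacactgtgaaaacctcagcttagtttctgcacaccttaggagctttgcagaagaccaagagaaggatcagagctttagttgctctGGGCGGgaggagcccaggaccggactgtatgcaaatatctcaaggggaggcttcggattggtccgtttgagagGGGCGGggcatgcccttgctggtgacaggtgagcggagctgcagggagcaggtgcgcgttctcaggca
Upk3b: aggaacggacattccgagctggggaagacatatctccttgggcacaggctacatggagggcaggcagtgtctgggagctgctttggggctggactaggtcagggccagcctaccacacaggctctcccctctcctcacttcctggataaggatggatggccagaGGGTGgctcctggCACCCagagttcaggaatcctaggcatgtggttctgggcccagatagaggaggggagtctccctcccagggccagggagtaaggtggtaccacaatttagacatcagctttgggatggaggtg
Upk3bl: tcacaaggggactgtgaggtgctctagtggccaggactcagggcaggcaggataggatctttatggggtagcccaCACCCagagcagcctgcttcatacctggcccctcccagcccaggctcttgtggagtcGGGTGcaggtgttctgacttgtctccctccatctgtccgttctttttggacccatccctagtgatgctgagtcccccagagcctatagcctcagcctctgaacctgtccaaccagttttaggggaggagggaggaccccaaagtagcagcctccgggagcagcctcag

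A CACCC box stood in 3 of the 4 windows, beginning 245 and 239 bases before the start in Upk1a, 86 and 73 bases before it in Upk3b, and 175 and 118 bases before it in Upk3bl. Over 27025 promoter windows of the same length, 1 per symbol, 56.7% held the CACCC letters on either strand. Upk3a had no CACCC box and had GC boxes 91 and 18 bases before the start; 35.9% of all windows held a GC box. The CACCC letters were present in the window of Upk3b as well as in those of Upk1a and Upk3bl. Other motifs searched on both strands were rarer. The grainyhead-like letters AACNNGTT stood 9 bases before the start of Upk3bl, against 4.19% of all windows with a match. In the Upk3b window the ETS letters CAGGAAG stood 113 bases before the start and the nuclear receptor letters AGGTCA 155 bases before it, against 13.0% and 16% of all windows. The GATA letters AGATAA stood 188 bases before the start of Upk3a, against 11.4% of all windows. The forkhead letters TGTTTAC and the TATA box TATAAA, found in 3.55% and 14.2% of all windows, were not in these 4 windows. No matches overlapped in these windows, and a match describes the sequence only.

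Klf5 itself read 10.12, 10.34 and 10.23 on the log2 scale on the 3 Klf5-deleted arrays and 10.84, 10.63 and 10.97 on the 3 control arrays. It was lower by a log2 difference of -0.59 (SE 0.10, adjusted p = 0.0381 by limma, adjusted over all 19938 genes). The call held in 1 of the 6 fits that left out an array, the one without control 2, and the adjusted p was up to 0.156 in the others. In whole bladders, fewer cells of a type and less RNA per cell cannot be told apart, which applies to every level below.

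Transcripts of most uroplakins were strongly reduced when Klf5 was deleted. By limma, 5 of the 6 genes passed an adjusted p of 0.05, all of them lower, where 1.59% of all genes passed in that direction. All 5 were at least 2-fold lower, against 0.527% of all genes. For each of the 6 genes every Klf5-deleted array lay below every control, against 11.8% of all genes. The median difference of the 6 genes was -2.16 on the log2 scale, and the median of all genes was -0.00993.

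**Figure D1:**
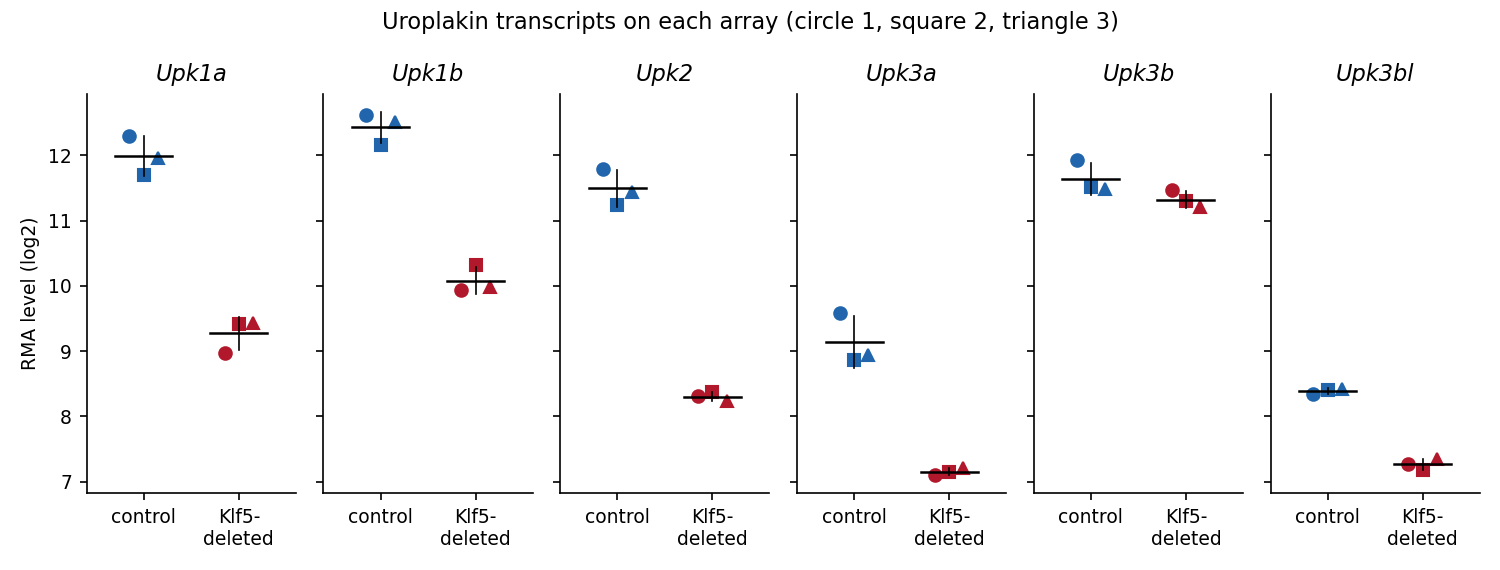
RMA log2 level (vertical axis) of the 6 uroplakin genes on each array, with controls in blue and Klf5-deleted samples in red, replicate 1 as a circle, 2 as a square and 3 as a triangle; horizontal lines are means and vertical lines SDs of 3 arrays. The gap between the groups is 2.88 for Upk2 and 0.0186 for Upk3b; levels of different genes come from different probes and are not comparable with each other.

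Of the tetraspanin genes, Upk1a read 8.98, 9.41 and 9.43 on the Klf5-deleted arrays and 12.30, 11.70 and 11.96 on the controls. Every Klf5-deleted array lay at least 2.28 log2 units below the lowest control. The group means were 9.27 ± 0.25 (SD, n = 3) and 11.99 ± 0.30 (SD, n = 3), a 6.58-fold fall (log2 difference -2.72, 95% interval -3.13 to -2.30, adjusted p = 0.0012 by limma). Upk1a protein is the plaque component that type 1 fimbriae of uropathogenic Escherichia coli bind. Upk1b, whose product can leave the endoplasmic reticulum without a partner, read 9.94, 10.33 and 9.98 on the Klf5-deleted arrays and 12.61, 12.16 and 12.52 on the controls. Its fall was 5.09-fold, with a log2 difference of -2.35 (SE 0.15) and an adjusted p of 0.00119 by limma. Its lowest control, control 2, stood 1.83 above its highest Klf5-deleted array.

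Among the partners, Upk2 read 8.31, 8.37 and 8.23 on the Klf5-deleted arrays and 11.80, 11.24 and 11.44 on the controls. The Klf5-deleted arrays lay within 0.137 log2 units of each other, while the controls spread over 0.553. Upk2 ranked 3 among all genes by size of fall, at 10.9% of its control level (log2 difference -3.19, 95% interval -3.51 to -2.88, adjusted p = 0.000636 by limma). Upk1a, which codes for its protein partner, ranked 8, Upk1b ranked 15 and Upk3a ranked 20 of 19938. Upk3a, whose loss in mice is known to deplete the plaques and to cause vesicoureteral reflux, read 7.10, 7.15 and 7.21 on the Klf5-deleted arrays and 9.59, 8.87 and 8.94 on the controls. It was 3.95-fold lower (log2 difference -1.98, 95% interval -2.40 to -1.56, adjusted p = 0.00292 by limma). Control 1 stood well above the other controls, and the groups remained 1.66 apart. The Klf5-deleted readings of Upk3a and Upk3bl lay below the array medians over all features, which were 7.68 to 7.80. The deposited values hold no detection call, so whether these readings stood above background is unknown.

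Upk3b, the member also known from mesothelium, read 11.46, 11.30 and 11.20 on the Klf5-deleted arrays and 11.92, 11.51 and 11.48 on the controls. The highest Klf5-deleted array and the lowest control differed by 0.0186, so the groups were separate by a margin far smaller than the spread within either. The means were 11.32 ± 0.13 (SD, n = 3) and 11.64 ± 0.25 (SD, n = 3). The log2 difference was -0.32 (SE 0.13, 95% interval -0.63 to -0.01), with an unadjusted p of 0.0439 and an adjusted p of 0.329 by limma, and Upk3b did not pass. Control 1 carried much of the difference, which was -0.18 without it. The mean level in Klf5-deleted bladders was 80.2% of the control level, against 10.9% to 25.3% for Upk1a, Upk1b, Upk2 and Upk3a.

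Upk3bl, the neighbour of Upk3b on chromosome 5, read 7.27, 7.18 and 7.35 on the Klf5-deleted arrays and 8.34, 8.41 and 8.42 on the controls. It was 2.18-fold lower (log2 difference -1.12, 95% interval -1.29 to -0.96, adjusted p = 0.00119 by limma), and the groups stood 0.991 apart. No other protein-coding gene lies between Upk3b and Upk3bl in the RefSeq gene table of GRCm38.p6. Around the 6 members, the 3 protein-coding genes on each side that are not members themselves made 30 genes. All 30 were measured and none passed limma's threshold, where 1.59% of all genes fell and 0.386% rose, a share at which a count of 0 among 30 is no result about the neighbours. Their differences ran from -0.17 for Rbm42, 3 genes away from Upk1a, to 0.46 for Igsf11 near Upk1b (adjusted p = 0.0502 by limma). The genes flanking the Upk3b and Upk3bl pair, Dtx2 and Rasa4, differed by 0.02 and 0.13.

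**Figure D2:**
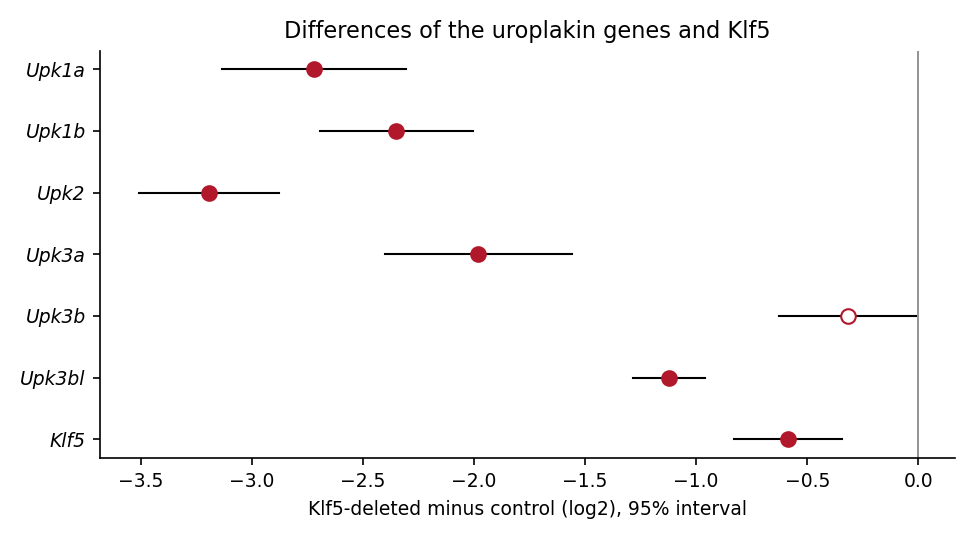
Log2 difference, Klf5-deleted minus control (horizontal axis), of the 6 uroplakin genes and Klf5, with limma's 95% interval; filled points are past an adjusted p of 0.05. Differences run from -3.19 for Upk2 to -0.32 for Upk3b, the open point, beside -0.59 for Klf5.

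The size of the fall was then compared between members. On the Klf5-deleted arrays Upk3a and Upk3bl read below the array medians over all features, so whether they could fall further is unknown. For each of the 15 pairs, the difference between both genes was taken on every array and compared between the groups by a two-sided exact permutation test, whose smallest possible p with 3 arrays against 3 is 0.1. The groups did not overlap in 13 pairs, whose exact permutation p was 0.1, or 0.115 after Benjamini-Hochberg adjustment over the 15 pairs. No pair could thus pass 0.05. The pairs reuse the same 6 genes, so the 13 are not separate results, and no share over all gene pairs was computed. The change of Upk2 minus that of Upk3b was -2.87 log2 units, and -2.93 to -2.80 when any array was left out. Upk3a changed more than Upk3b, which shares its protein partner, by -1.66. Upk3bl also changed more than Upk3b, by 0.80 when the change of Upk3bl is taken from that of Upk3b. The 2 pairs whose groups overlapped were Upk1a with Upk1b, at -0.37, and Upk1b with Upk3a, at -0.37, each with an exact permutation p of 0.2. Upk1a and Upk2, whose products pair, differed in change by 0.47, with Upk2 the more reduced on all 3 Klf5-deleted arrays. For single genes the exact permutation test also gave 0.1 for each of the 6 members, the smallest p it can reach.

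Among the controls, several members moved together from array to array. The Klf5-deleted arrays had no such shared order: arrays 1, 2 and 3 were the highest for 1, 2 and 3 members and the lowest for 3, 1 and 2. Control 1 was the highest control for 5 of the 6 members, all but Upk3bl, and control 2 was the lowest for Upk1a, Upk1b, Upk2 and Upk3a. For Upk3a control 1 lay 0.457 above the mean of its group, and for Upk2 it lay 0.302 above. Control 2 also held abundant placental RNA: Tpbpa, a gene of the placenta, read 13.13 there. It read 10.34 on Klf5-deleted 2 and between 6.18 and 8.35 on the remaining arrays. The part of placental RNA in the lower readings of control 2 was not tested. All 5 calls held in each of the 6 fits that left out an array, with adjusted p by limma from 7.73e-05 for Upk2 to 0.0249 for Upk3a.

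Genes of epithelia in general were also lower, and Upk1a, Upk1b and Upk2 had larger falls than any of those measured. Of 14 measured general epithelial genes 11 fell and none rose, with a median of -1.09, where 1.59% of all genes fell. The count of falls was 7 without control 1. The mean of the list was 8.65 to 8.95 on the Klf5-deleted arrays and 9.73 to 10.14 on the controls. The protease inhibitor genes Spint1 and Spint2 fell, by log2 differences of -1.88 and -1.08, the splicing regulator gene Esrp2 fell by 1.25, and Prom2 fell by 1.95. Upk1a, Upk1b and Upk2 each had a larger fall than all 14 of these genes, also when any 1 array was left out. Upk3a, at -1.98, stood beside Prom2, at -1.95, and their order turned without control 1 (-1.75 against -1.81) and without Klf5-deleted 3 (-2.01 against -2.03). Taken relative to the list mean on each array, Upk2 was lower by a further -2.06, Upk1a by -1.58, Upk1b by -1.22 and Upk3a by -0.85. Upk3bl differed from the list mean by 0.01 and Upk3b by 0.81. Whether Upk3a and Upk3bl, with Klf5-deleted readings below the array medians over all features, could fall further is unknown. These relative values were chosen after the differences had been seen. By exact permutation p was 0.1, the smallest possible, for 5 members and 1 for Upk3bl. Epcam, a surface adhesion molecule of epithelial cells, read 8.78, 9.71 and 8.98 on the Klf5-deleted arrays and 9.43, 9.43 and 9.78 on the controls. The groups overlapped for Epcam and its difference was -0.39 (SE 0.23, adjusted p = 0.521 by limma), which missed the threshold.

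**Figure D3:**
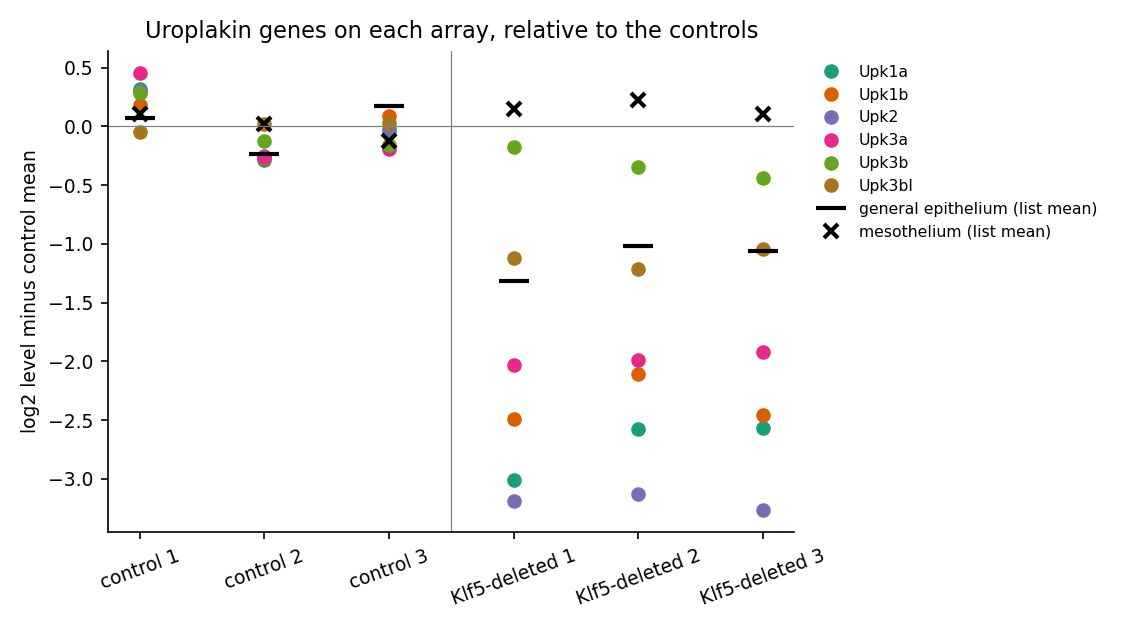
Log2 level minus the mean of the 3 controls (vertical axis) of the 6 uroplakin genes (coloured points) on each array, with the mean of 14 general epithelial genes (bars) and of 8 mesothelial genes (crosses). On the Klf5-deleted arrays Upk1a, Upk1b, Upk2 and Upk3a lie below the epithelial mean, Upk3bl near it and Upk3b above it.

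Among genes that carry uroplakins to and from the cell surface, the members that fell included known carriers of urothelial vesicles. Of 14 measured genes of plaque and vesicle trafficking 5 fell and none rose, with a median of -0.17, where 1.59% of all genes fell. Mal, a membrane protein of apical transport, read 7.46, 7.70 and 7.90 against 10.47, 10.21 and 10.45 in controls, a fall by 2.69 (adjusted p = 0.000649 by limma). Snx31, a sorting nexin that binds uroplakins in vesicles bound for degradation, fell by 2.58. Rab27b, a GTPase found on uroplakin vesicles, fell by 1.95. Sytl2, an effector of such GTPases, and the motor gene Myo5b fell by 0.71 and 0.67, but these calls were lost in most fits that left out an array. The list then held 3 falls when Klf5-deleted 1 or 2 or control 1 or 3 was left out. Vamp7, a vesicle fusion protein, differed by -0.24 (adjusted p = 0.401 by limma) and Vps33b by -0.21 (adjusted p = 0.634 by limma); neither passed.

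Keratins of umbrella cells and simple epithelia showed a large fall in 4 of 5 members, with a list median of -1.51. Over all genes 1.59% fell. Krt8 fell by 1.77, Krt18 by a log2 difference of -1.52, Krt7 by -1.51 and Krt19 by -1.46. Krt20, a keratin of mature umbrella cells, read 6.38 to 6.52 on the Klf5-deleted arrays and 6.63 to 6.75 on the controls. Its difference was -0.21 (adjusted p = 0.247 by limma), short of the threshold. In both groups Krt20 lay below the array medians over all features, 7.68 to 7.80. Whether it stood above background, and so could fall, is unknown. The basal urothelial list had 1 fall among 8 measured genes, Krt15, which fell by 1.43. Krt5, the basal keratin, read 10.49, 10.49 and 10.38 against 9.85, 11.37 and 10.44, and its control arrays lay on both sides of the Klf5-deleted ones.

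Tetraspanin genes outside the uroplakin family were set beside Upk1a and Upk1b. Of 26 measured, 4 fell and none rose, where 1.59% of all genes fell. The median of the 26 was -0.18 and the lowest difference -1.39, against -2.72 and -2.35 for Upk1a and Upk1b. Tspan8 fell by 1.39 and Cd9 by a log2 difference of -1.06. On the Klf5-deleted arrays Tspan8 read 6.10 to 6.61, below the array medians over all features, so whether it could fall further is unknown. Tspan13 and Tspan1 also fell, by log2 differences of -0.68 and -0.67, and were lost together without any of the 3 Klf5-deleted arrays or control 3, which left 2 falls. Tspan15 and Cd151 differed by -0.46 and -0.24 and did not pass.

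Several transcription factors of urothelial growth and differentiation were lower as well. Of 15 measured regulators 6 fell and none rose, with a median of -0.37, where 1.59% of all genes fell. Elf3, an epithelial ETS factor, read 7.25, 7.23 and 7.09 against 9.02, 8.60 and 8.76, a 3.04-fold fall, and its relative Ehf fell by 1.87. Pparg, the nuclear receptor of urothelial differentiation, read 8.09, 8.64 and 8.10 against 10.27, 9.86 and 10.04 and fell by 1.78. Grhl3, a factor known to regulate uroplakin genes in mouse urothelium, fell by 1.38, and Ovol1 fell by 0.75; Klf5 itself was the other gene past the threshold. Ehf did not pass without Klf5-deleted 1 or Klf5-deleted 2. Foxa1 differed by -0.89 (adjusted p = 0.0721 by limma), Klf4, a paralog of Klf5, by -0.37 (adjusted p = 0.0539 by limma) and Gata3 by -0.13 (adjusted p = 0.622 by limma), none of which passed. Shh, a signalling molecule of the bladder epithelium, differed by -0.52 (adjusted p = 0.168 by limma).

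Mesothelial genes, given because of Upk3b, went mostly the other way from the plaque genes. Of 8 measured, 7 were higher and 1 was lower in the Klf5-deleted bladders, with a median of 0.38. Over all genes 53.5% were lower. Aldh1a2, which makes retinoic acid, and Wt1, a transcription factor of mesothelium, rose by 0.63 and 0.54, against 0.386% of all genes that rose. Neither call was kept when Klf5-deleted 1 or 2 or control 1 or 3 was left out. Lrrn4, a surface protein of mesothelial cells, read 9.59, 9.64 and 9.59 against 9.62, 9.16 and 8.86 and did not pass (difference 0.39, adjusted p = 0.358 by limma). Msln, the mesothelial surface protein mesothelin, was the member that fell, by 1.42, from 8.52 to 8.91 on the controls to 7.30 to 7.32 on the Klf5-deleted arrays. The list mean was 9.04 to 9.16 on the Klf5-deleted arrays and 8.81 to 9.04 on the controls. The part of mesothelial cells in the Upk3b reading was not tested. Of the other cell types, all 8 smooth muscle genes were lower, with a median of -0.28. For 6 of them every Klf5-deleted array lay below every control, against 11.8% of all genes. The list had 1 fall, where 1.59% of all genes fell, and no fit without an array kept it. Mesenchyme, endothelium and leukocyte lists had no gene past the threshold, with medians of -0.06, -0.03 and -0.19, nor did 2 placental and 8 housekeeping genes, with medians of -1.22 and -0.00175.

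**Figure D4:**
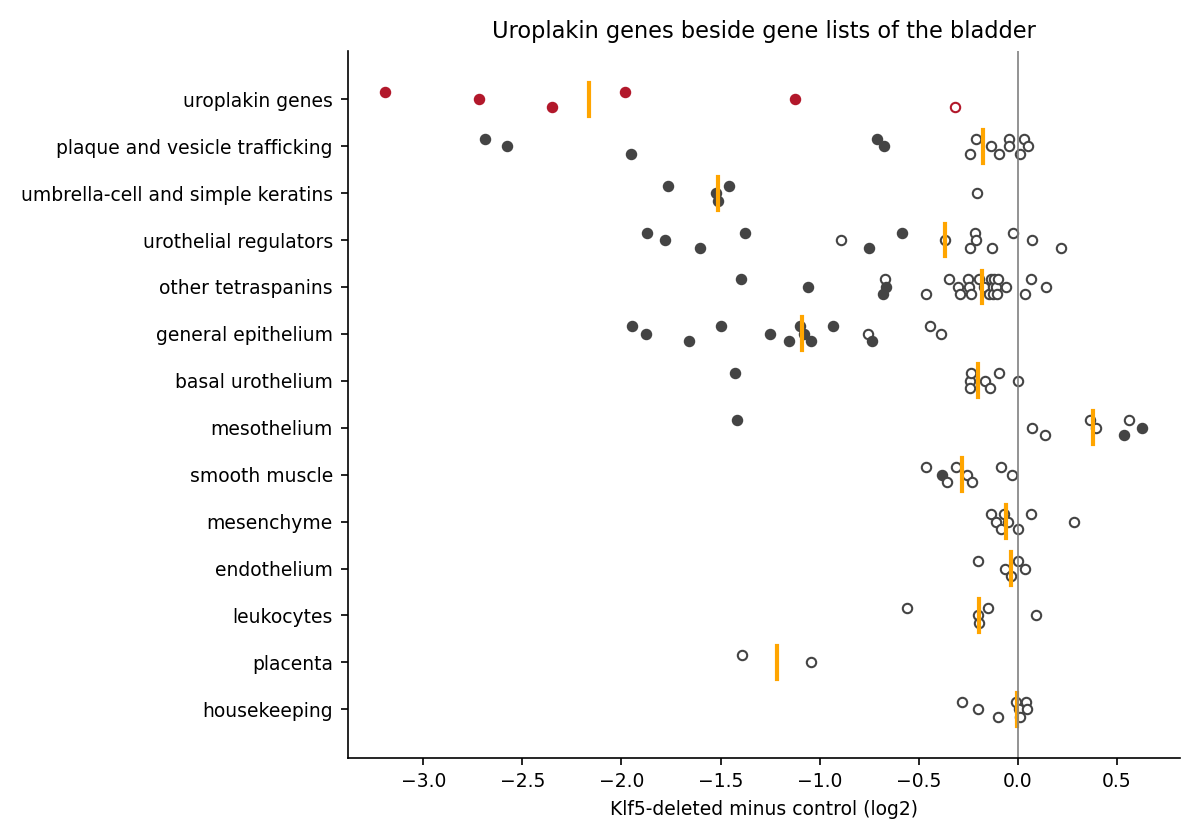
Log2 difference, Klf5-deleted minus control (horizontal axis), of the 6 uroplakin genes (red) and of the genes of 13 lists, 1 point per gene; filled points are past an adjusted p of 0.05 by limma and orange bars are list medians. The uroplakin median is -2.16, that of general epithelium -1.09 and that of mesothelium 0.38.

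The genes whose levels followed each member most closely were taken from 752 genes that spanned at least 1 log2 unit over the 6 arrays. Likeness was Pearson's r of log2 levels over the 6 arrays, which fall into the 2 genotype groups, so r mainly reflects the gap between them and is given as a description. Upk2 was most like Aldh3b2, an aldehyde dehydrogenase gene that fell by 2.69, at r = 0.9985, followed by Cds1, a phospholipid synthesis enzyme, Elf3, Tmem45b and Anxa9. Upk1a was most like Plet1 (r = 0.9977), then Tmem45b, the homeobox gene Msx2, Krt8 and Aldh3b3. Upk1b was most like Wfdc2 (r = 0.9982), then Rab27b, Plet1, Anxa9 and Spint2. Upk3a was most like Lrrc8e (r = 0.9979), then Ivl, a cornified envelope gene, the fucosyltransferase gene Fut2, Psca and Pof1b. The genes nearest Upk3bl were Perp (r = 0.9976), a desmosomal protein gene, Sfn, Dock8, Tmem79 and Mal, of which all but Mal had log2 differences of -1.24 to -0.98, beside -1.12 for Upk3bl itself. Among the genes compared, Upk3b had no match of that closeness. Its nearest was the gasdermin gene Gsdmc4 at r = 0.9338, followed by Clec2d, Grm3, Gsdmc and Nt5e. None of these 5 passed limma's threshold. Upk3b itself read 11.20 to 11.92, a span under 1 log2 unit, so genes with as small a range could not be named for it.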

How the data were processed

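Per the submitters' processing notes the authors used RMA (background correction, quantile normalization, probe summary). That the deposited values are log2 was read from their range, 3.24 to 14.65. The sources used here give no version, genome build or probe annotation. Of 35557 features, 21789 had 1 symbol, 1621 several and 12147 none. The feature with the highest mean stood for each of 19938 genes, and 19856 of these matched RefSeq (GRCm38.p6) by Entrez identifier. Groups came from sample titles. Klf5-deleted minus control was fitted with limma 3.58.1 in R 4.3.3 (lmFit, eBayes, two-sided), with Benjamini-Hochberg adjustment over all genes and a threshold of 0.05. Exact permutation tests used scipy 1.17.1. The procedure was tested on simulated data. The number of arrays limits precision, and p-values measure only the spread between pools, which may be technical. The members, lists and naming rule were chosen with earlier results of these data known. The rule took the members, Klf5, 18 further genes, up to 6 called and 2 uncalled genes of each list, and the 5 genes most like each member. Acta2 and the neighbouring genes, and the comparisons with neighbours and with the epithelial mean, were chosen after values were seen. Alternatives covered arrays left out, centring, feature rules, filters and variance models. Deviations of same-numbered arrays correlated at 0.009, 0.031 and 0.079, and those of differently numbered arrays at -0.053 to 0.011. With 3 arrays per group these values cannot settle whether replicate numbers paired the samples. The main fit was unpaired.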

Additional observations from a re-analysis of the deposited data

How the results depend on the processing

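The 5 falls held in 15 of 17 alternatives: without each array in turn, with the replicate block, with arrays centred on the mean of 8 measured housekeeping genes or on the median of all genes, with other rules for features, with a variance trend, with array weights and with a 2-fold minimum. With only genes above the median level tested the count was 3, because Upk3a and Upk3bl were left out by that filter. An ordinary test per gene without shared spread gave 0 falls and no call among all genes, with adjusted p of 0.0712 to 0.143 for the 5 genes; unadjusted, 5 of 6 members and 2422 of 19938 genes had p under 0.05, while limma called 395 genes. All 6 differences kept their sign in every alternative that tested them, and Upk3b passed in none of 16, with adjusted p of 0.206 to 0.525. With the replicate number as a replicate block, 5 uroplakin genes fell, and calls over all genes numbered 105 falls and 5 rises, against 318 and 77. Centring on housekeeping genes split the calls into 254 falls and 139 rises, and centring on the median into 273 and 116. Without single arrays the falls over all genes numbered 124 to 285 and the rises 17 to 64. Klf5 passed in 7 of 16 alternatives. No background call was available, which limits what can be said of dim readings.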
